A study of Mus musculus with 6 samples.

Results

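The 31 genes described here cover cholesterol synthesis (18 enzymes), sterol sensing (4 genes), transport inside the cell and esterification (4 genes), and efflux with its regulators and a ligase that limits lipoprotein uptake (5 genes). They were taken by symbol from a table of 55011 genes, and all 31 were present and passed the filter on low counts. Polyadenylated RNA was measured in cultured stromal cells from mouse visceral fat (labelled VAT, and eWAT in the design text) that were negative for an EGFP reporter of Il33. PBS was given to 3 cultures and 10 nM irisin/HSP90α to 3 (called irisin below), each for 3 days. Titles name irisin alone, the treatment label irisin/HSP90α. Irisin is a hormone released from Fndc5 by exercising muscle, and HSP90α a chaperone protein. The labels do not say whether the PBS wells held HSP90α, nor do they give strain, sex or age. Cells were lysed in the culture plate and a share of each lysate was sequenced. The labels do not say that replicates came from separate cultures or animals, so p-values measure the spread between these libraries, which may be technical. The design asks whether the treatment moves adipocyte precursors towards immunomodulatory stromal cells.

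Cells build cholesterol from acetyl-CoA through mevalonate, isoprenoids, squalene and lanosterol. The transcription factor SREBP-2 (Srebf2) switches on most of these enzymes when membranes run low on sterol, and Scap and the Insig proteins hold it in the endoplasmic reticulum when sterol is plentiful. Oxysterols, which are oxidised cholesterol, bind the liver X receptors LXRα (Nr1h3) and LXRβ (Nr1h2), whose known targets include the exporters Abca1 and Abcg1. Fat tissue is a major store of unesterified cholesterol.

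The libraries held 5271309 to 6745799 counts. Levels are CPM (counts scaled to library size), and 1 CPM stood on 5.17 to 6.89 counts. Defining genes of macrophages (Ptprc, Adgre1, Mrc1, C1qa, C1qb, C1qc and Fcgr1), of endothelium (Pecam1, Cdh5, Kdr and Emcn), of mesothelium and of lymphocytes lay at 0 to 1.57 CPM in each library. Higher were Csf1r (55.3 to 66.1 CPM), Lyz2 (4.25 to 17.4 CPM) and Cd68 (2.24 to 6.39 CPM) of the macrophage list, which summed to 66.9 to 83.0 CPM in PBS and 62.6 to 87.0 CPM in irisin. Of the endothelial list it was Tek (called lower), and that list summed to 31.1 to 37.7 CPM in PBS and 18.4 to 26.2 CPM in irisin. The 7 stromal markers summed to 31100.5 to 37628 CPM in PBS and 42828 to 47017 CPM in irisin, with Pdgfra and Col1a1 called higher and Lum and Dpt lower. Summed mature adipocyte markers (6 genes, with Lep at 0 in all libraries) were 151 to 244 CPM in PBS and 40.5 to 50.4 CPM in irisin. All 5 of these genes that were tested were called lower. The part of the stromal, adipocyte and endothelial markers in the results below was not tested, and in bulk RNA fewer cells of a type and less RNA per cell cannot be told apart. On the second principal component (23.9% of variance) PBS replicate 3 and irisin replicate 1 stood apart from the other 4 libraries.

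Most of the cholesterol genes differed little between irisin and PBS, while the 2 efflux transporters moved in opposite directions. Of the 31 genes, 1 rose (Abca1), 2 fell (Abcg1 and Hsd17b7) and 28 did not pass an adjusted p of 0.05 in edgeR's quasi-likelihood test, adjusted over the 12296 genes tested. The share called was 9.68% here and 7.42% over all genes tested (4.20% higher, 3.22% lower), so the set as a whole was called about as often as other genes. With libraries scaled by total counts alone, 41.2% of all calls were upward, against 56.6%. The median log2 fold change (LFC, irisin against PBS) of the 31 genes was -0.09, beside -0.01 for all genes tested. The groups did not overlap in 7 of the 31 genes (22.6%, 1 higher and 6 lower), beside 23.6% of all genes tested (1486 higher and 1420 lower).

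**Figure D1:**
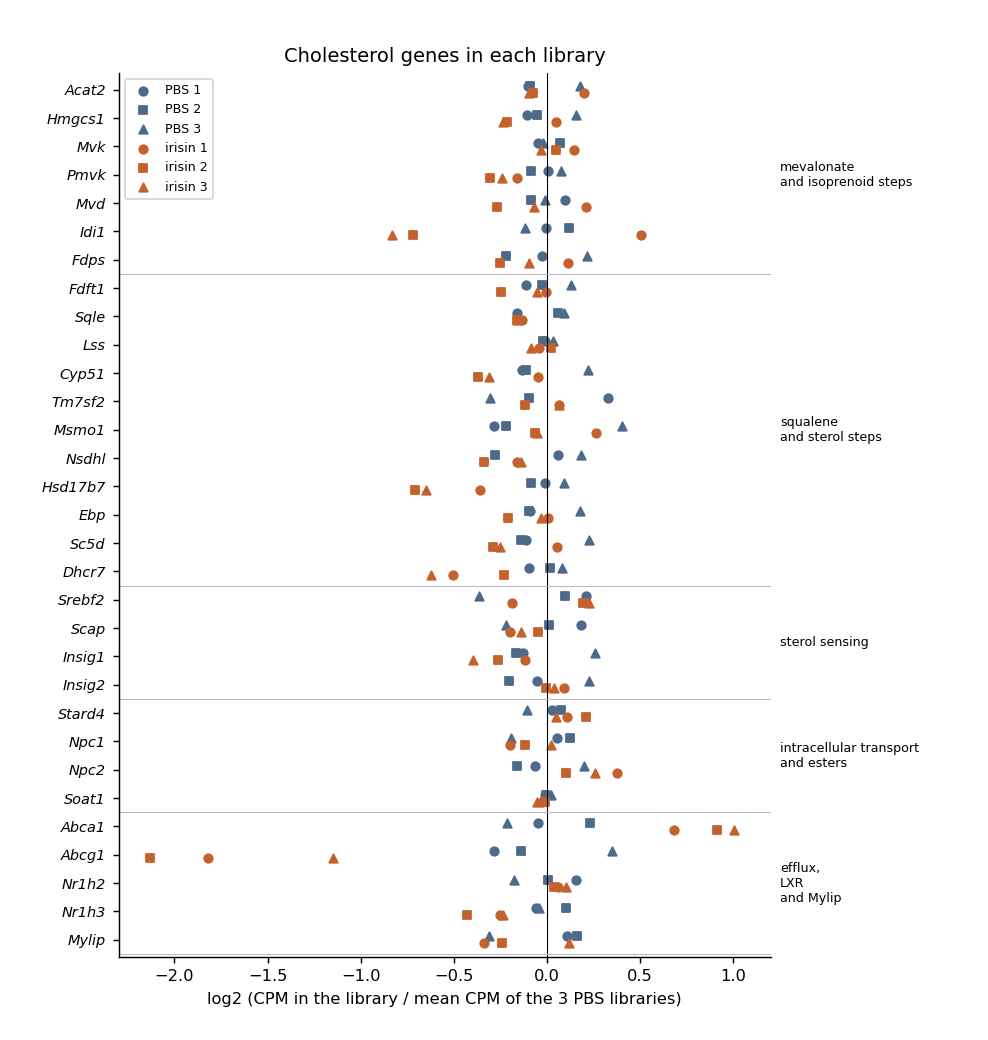
Level of each of the 31 genes in each library as log2 of its CPM over the mean of the 3 PBS libraries, grouped by role (blue PBS, orange irisin; circle, square and triangle are replicates 1, 2 and 3). In Abca1, Abcg1 and Hsd17b7 the irisin points lie apart from PBS on 1 side, as they do in Pmvk, Dhcr7, Nr1h3 and Soat1, which were not called. In Idi1 the irisin points lie on both sides of PBS, and in most synthesis enzymes the points of both groups mix.

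**Figure D2:**
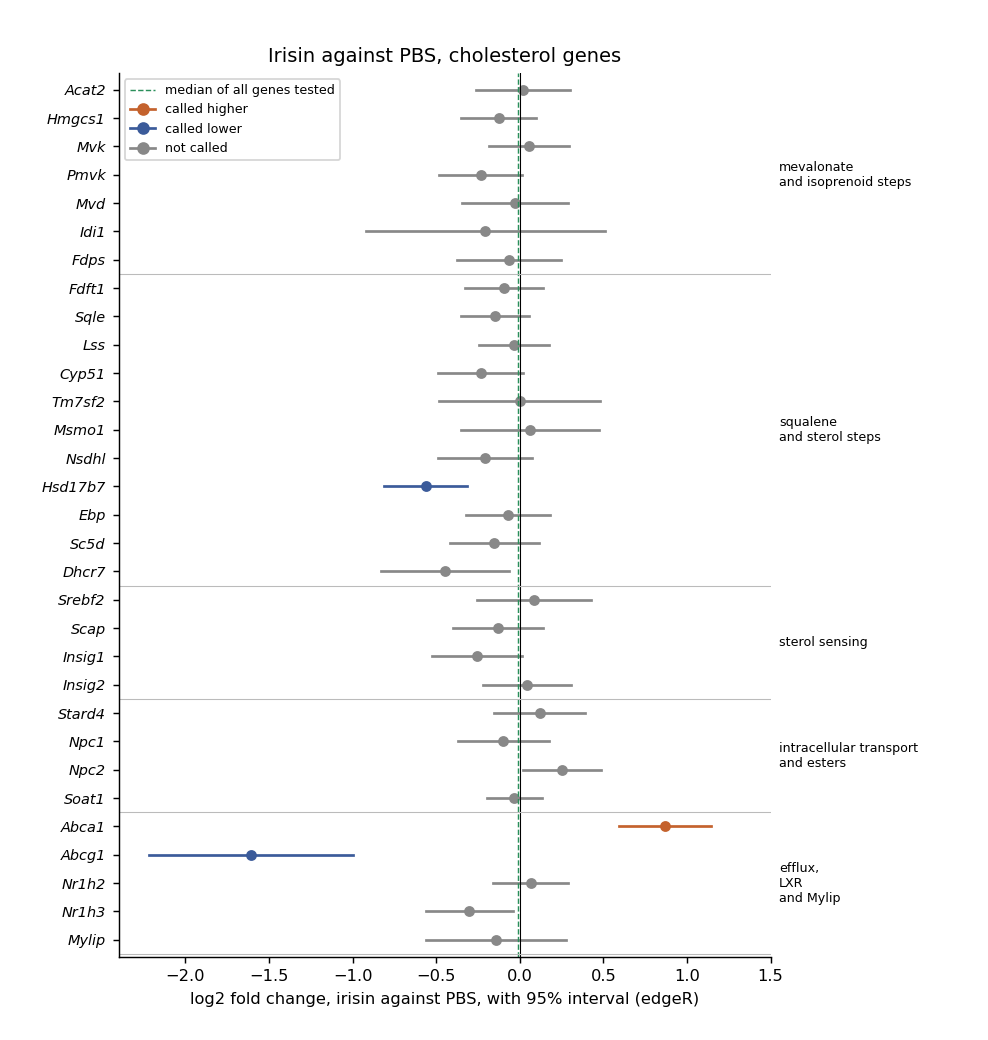
Log2 fold change of each gene (point) with its 95% interval (line), irisin against PBS, from edgeR. Abca1 was called higher and Abcg1 and Hsd17b7 lower, and 23 of the other 28 intervals lie within 0.5 of 0 on both sides.

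Abca1, which exports cholesterol and phospholipid to lipid-poor apolipoproteins, rose. Its level was 66.8, 81.1 and 59.5 CPM in PBS replicates 1 to 3 and 111, 130.1 and 138 CPM in irisin replicates 1 to 3. The lowest irisin library was above the highest PBS library. The mean went from 69.1 ± 11.0 to 126 ± 14.2 CPM (SD, n = 3 each), a 1.83-fold rise (LFC 0.87 ± 0.13 standard error, 95% interval 0.60 to 1.14, adjusted p = 0.000629). The call held under all 17 alternatives of processing and left-out libraries, with LFC from 0.78 to 1.00.

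Abcg1, which passes cholesterol to mature lipoprotein particles, fell. It was scarce, at 9.72, 10.8 and 15.1 CPM in PBS (67, 68 and 82 counts) and 3.36, 2.71 and 5.34 CPM in irisin (21, 14 and 34 counts). The groups did not overlap. The mean went from 11.9 ± 2.85 to 3.80 ± 1.37 CPM (SD, n = 3 each) and was 3.05-fold lower (LFC -1.61 ± 0.28, 95% interval -2.22 to -1.0, adjusted p = 0.00263). This call also held under all 17 alternatives, with LFC from -1.94 to -1.31. Both genes were thus called in the same libraries, one in each direction.

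The LXR genes themselves did not pass. Nr1h3 was 35.7, 39.9 and 36.1 CPM in PBS and 31.2, 27.6 and 31.6 CPM in irisin, so the irisin libraries all lay below the PBS libraries. Its LFC of -0.30 ± 0.12 gave an unadjusted p of 0.0263 and an adjusted p of 0.186 in edgeR. Nr1h2 was at 78.1 to 98.3 CPM in PBS and 90.4 to 94.7 CPM in irisin, with overlapping groups (LFC 0.06 ± 0.10, adjusted p = 0.835). Per kilobase of exon Nr1h2 stood at 26.9 CPM and Nr1h3 at 13.4 CPM over the 6 libraries. Mylip, a further LXR target whose product marks lipoprotein receptors for breakdown, was 11.4 to 15.8 CPM in PBS and 11.2 to 15.4 CPM in irisin (LFC -0.14 ± 0.19, 95% interval -0.56 to 0.27, adjusted p = 0.797).

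**Figure D3:**
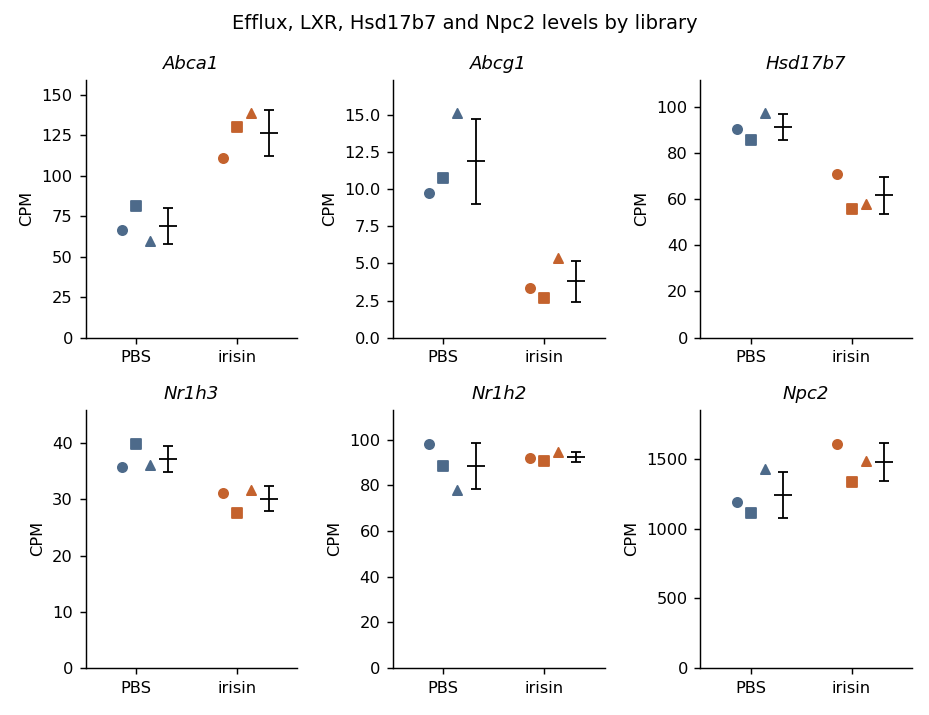
CPM of Abca1, Abcg1, Hsd17b7, Nr1h3, Nr1h2 and Npc2 in each library (linear axis from 0; circle, square and triangle are replicates 1, 2 and 3), with mean and SD of each group in black. The groups are apart in the first 4 genes and overlap in Nr1h2 and Npc2.

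The synthesis route was called in 1 of 18 enzymes. Hsd17b7, a 3-ketosteroid reductase of the steps after lanosterol that can also form oestradiol, fell from 90.4, 85.7 and 97.0 CPM in PBS to 70.9, 55.7 and 58.0 CPM in irisin. The groups did not overlap. The mean went from 91.1 ± 5.68 to 61.5 ± 8.21 CPM (SD, n = 3 each) and was 1.48-fold lower (LFC -0.56 ± 0.11, 95% interval -0.81 to -0.32, adjusted p = 0.00738). The call was lost without irisin replicate 2 (adjusted p = 0.0594) or irisin replicate 3 (adjusted p = 0.0564), and over all 17 alternatives the adjusted p lay between 6.17e-06 and 0.0594.

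None of the 7 enzymes from acetyl-CoA to farnesyl pyrophosphate passed, with LFC from -0.23 to 0.05. Hmgcs1, which makes HMG-CoA and is the most abundant of them, was 198, 206 and 238 CPM in PBS and 221, 184 and 182 CPM in irisin. Its groups overlapped (LFC -0.13 ± 0.10, 95% interval -0.35 to 0.10, adjusted p = 0.612). Acat2, which condenses acetyl-CoA, had an LFC of 0.02 ± 0.13, and the mevalonate kinase Mvk one of 0.05 ± 0.11. Pmvk, the phosphomevalonate kinase, was 39.2, 36.8 and 41.1 CPM in PBS and 34.9, 31.5 and 33.0 CPM in irisin. Its groups did not overlap, but the difference did not pass (LFC -0.23 ± 0.11, adjusted p = 0.313). Mvd, the next decarboxylase, and Fdps, the farnesyl pyrophosphate synthase, had LFC of -0.03 and -0.06. Idi1, the isomerase, was the scarcest of these enzymes and the least certain. It was 6.97, 7.61 and 6.44 CPM in PBS and 9.92, 4.25 and 3.93 CPM in irisin. Irisin replicate 1 was thus above all PBS libraries and the other irisin libraries below them, and the 95% interval ran from -0.92 to 0.51.

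From squalene to cholesterol, 10 of 11 enzymes did not pass. The LFC of 10 of the 11 were negative, beside 6305 of 12296 over all genes tested, and that of Tm7sf2 was only -0.002. Fdft1, the squalene synthase, and Sqle, the squalene epoxidase and a rate-limiting step, had LFC of -0.09 ± 0.11 and -0.15 ± 0.09. Sqle was 108, 125 and 129 CPM in PBS and 110.1, 108 and 108 CPM in irisin, so the irisin libraries were close to PBS replicate 1. Lss, which closes the rings to form lanosterol, was at 65.1 to 67.8 CPM in PBS and 62.4 to 67.3 CPM in irisin (LFC -0.03 ± 0.10, 95% interval -0.24 to 0.17). Cyp51, the lanosterol demethylase, was 150.1, 152 and 192 CPM in PBS and 159, 128 and 133 CPM in irisin (LFC -0.23 ± 0.12, adjusted p = 0.325). Its call depended on the libraries used, since it was called lower when PBS replicate 3 and irisin replicate 1 were dropped together (LFC -0.21, adjusted p = 0.0467). Dhcr7, a reductase that completes cholesterol, was 13.4, 14.4 and 15.1 CPM in PBS and 10.1, 12.2 and 9.27 CPM in irisin. Its groups did not overlap and its 95% interval was -0.83 to -0.07, yet the adjusted p was 0.181. The methyl sterol oxidase Msmo1, the C-4 decarboxylase Nsdhl, the isomerase Ebp, the desaturase Sc5d and the C-14 reductase Tm7sf2 had LFC from -0.21 to 0.06, none called.

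The intervals give the range of change that the spread between libraries allows. Of the 17 synthesis enzymes that were not called, 15 had 95% intervals within 0.5 of 0 on the log2 scale in both directions, the exceptions being Idi1 and Dhcr7. Over all genes tested, called genes included, 5437 of 12296 had intervals within those bounds. Summed over the 18 enzymes, the level was 1344 ± 141 CPM in PBS and 1217 ± 113 CPM in irisin (SD, n = 3 each), and the groups overlapped.

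Within each group the libraries differed in this sum as much as the groups did. It was 1259, 1266 and 1507 CPM in PBS replicates 1, 2 and 3, and 1347, 1137 and 1168 CPM in irisin replicates 1, 2 and 3. PBS replicate 3 was the highest PBS library in 14 of the 18 enzymes (77.8%, beside 39.5% of all genes tested). Irisin replicate 1 was the highest irisin library in 14 of 18 as well (beside 36.9%). These are the libraries that stood apart on the second principal component. Msmo1 is an example, at 139.7 CPM in PBS replicate 3 and 127 CPM in irisin replicate 1 but 86.9 to 102 CPM in the other 4 libraries. Srebf2 ran the other way, with 78.2 CPM in PBS replicate 3 and 88.3 CPM in irisin replicate 1 against 107 to 118 CPM in the others. The part of this library difference in the enzymes' fold changes was not tested beyond leaving the libraries out. With both left out, Hsd17b7 (adjusted p = 6.17e-06) and Cyp51 were called lower and no synthesis enzyme higher. In that setting 1680 of 12432 genes were called, beside 912 of 12296 with all libraries. Both libraries had stood apart in these same data, so leaving them out narrows the spread within groups.

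**Figure D4:**
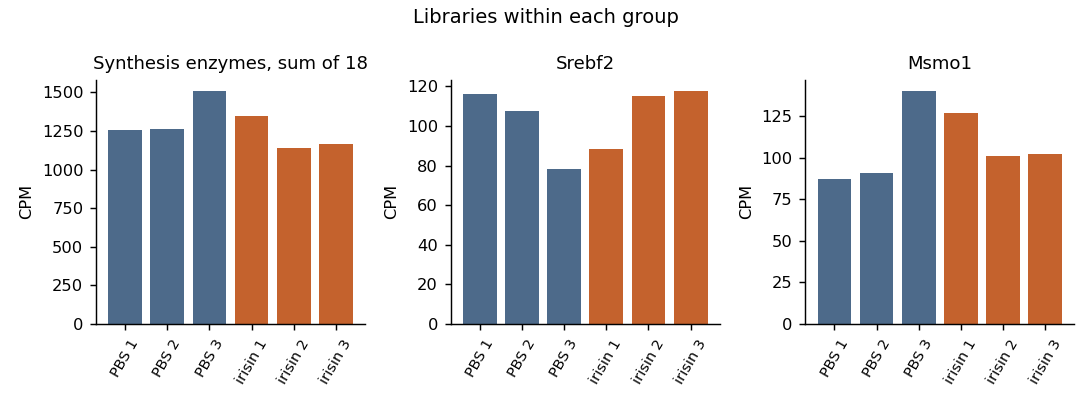
CPM in each library (bars from 0, blue PBS, orange irisin) of the 18 synthesis enzymes summed, of Srebf2 and of Msmo1. The sum and Msmo1 are highest in PBS replicate 3 and irisin replicate 1, where Srebf2 is lowest.

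Promoter sequences are shown for Hmgcs1 and Cyp51, enzymes whose level did not pass, for Hsd17b7, the enzyme that fell, and for Abca1, the exporter that rose. Each window runs 5′ to 3′ on the gene's strand from 250 bases before the start site to 50 after it, from RefSeq on GRCm38.p6. Capitals mark the sterol regulatory element TCACNCCAC and the NF-Y box CCAAT, found on either strand. The Hmgcs1 window is chr13:119690101-119690400 (plus strand), that of Cyp51 chr5:4104648-4104947 (minus), that of Hsd17b7 chr1:169969156-169969455 (minus) and that of Abca1 chr4:53159846-53160145 (minus).
Hmgcs1: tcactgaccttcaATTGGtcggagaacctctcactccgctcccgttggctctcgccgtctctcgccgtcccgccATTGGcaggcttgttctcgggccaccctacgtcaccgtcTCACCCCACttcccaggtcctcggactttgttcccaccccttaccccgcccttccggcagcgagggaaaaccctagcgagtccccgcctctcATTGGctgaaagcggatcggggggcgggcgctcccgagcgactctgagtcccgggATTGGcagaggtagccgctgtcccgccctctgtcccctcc
Cyp51: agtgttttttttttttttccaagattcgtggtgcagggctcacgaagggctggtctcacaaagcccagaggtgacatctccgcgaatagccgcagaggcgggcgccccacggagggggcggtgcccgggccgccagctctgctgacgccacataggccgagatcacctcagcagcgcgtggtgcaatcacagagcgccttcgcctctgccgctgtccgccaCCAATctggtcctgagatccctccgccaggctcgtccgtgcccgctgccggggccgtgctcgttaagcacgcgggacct
Hsd17b7: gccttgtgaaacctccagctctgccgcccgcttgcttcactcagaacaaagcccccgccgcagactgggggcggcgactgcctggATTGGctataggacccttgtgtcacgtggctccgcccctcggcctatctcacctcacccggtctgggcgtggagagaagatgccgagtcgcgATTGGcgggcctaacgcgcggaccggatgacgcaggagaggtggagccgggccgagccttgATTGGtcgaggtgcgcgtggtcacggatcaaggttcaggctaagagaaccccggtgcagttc
Abca1: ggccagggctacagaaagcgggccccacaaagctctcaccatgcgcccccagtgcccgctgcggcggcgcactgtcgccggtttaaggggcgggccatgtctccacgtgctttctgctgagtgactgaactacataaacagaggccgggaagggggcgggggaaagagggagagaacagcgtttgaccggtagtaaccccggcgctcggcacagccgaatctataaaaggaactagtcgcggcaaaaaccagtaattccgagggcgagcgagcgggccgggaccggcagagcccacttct

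Windows were held for 25 of the 31 genes, 5 of which had more than 1 window. Entries for Fdps, Fdft1, Sqle, Stard4, Npc1 and Abcg1 were missing. The sterol regulatory element, to which SREBP binds, was searched only as the exact pattern TCACNCCAC. That pattern was found in Hmgcs1 alone, 137 bases before the start, and in 1.24% of all 32851 windows. Variant forms of the element were not searched, so windows without the pattern may still hold one. The NF-Y box, bound by a factor that works beside SREBP, was in 14 of the 18 windows of synthesis enzymes and in 37.4% of all windows. Counted by gene, 14 of the 15 enzymes with a window had it in at least 1 window, Hsd17b7 (3 boxes) and Cyp51 (1 box) included. Genes with several windows have more chances of a match, so counts by gene are not to be set against the share of all windows. The Abca1 window held no NF-Y box. The GC box GGGCGG, a site of Sp1, was in 15 of the 18 windows and 35.7% of all windows. The E-box CACGTG was in 3 of the 18 windows (1 each of Hsd17b7, Dhcr7 and Sc5d) and 7.15% of all windows, and also in windows of Abca1, Insig1 and Scap. Hsd17b7 was the only enzyme called, so boxes could not be compared between enzymes that fell and those that did not pass. All motifs were searched on both strands, no match in the 4 printed windows overlapped another, and base composition was not matched.

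None of the 4 sterol sensing genes passed. Srebf2 had an LFC of 0.08 ± 0.15 (95% interval -0.25 to 0.42, adjusted p = 0.860), and its escort Scap one of -0.13 ± 0.12 (adjusted p = 0.675). Insig1, a retention protein that is itself an SREBP target, was 102, 99.0 and 133 CPM in PBS and 102, 92.8 and 84.4 CPM in irisin. It did not pass (LFC -0.25 ± 0.12, adjusted p = 0.309). Insig2, the other retention protein, had an LFC of 0.04 ± 0.12 (adjusted p = 0.911).

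Transport and storage genes did not pass either. Npc2, which binds cholesterol inside lysosomes and was the most abundant of the 31 genes, was 1192, 1112 and 1430 CPM in PBS and 1614, 1338 and 1488 CPM in irisin. PBS replicate 3 reached into the irisin range (LFC 0.25 ± 0.11, 95% interval 0.02 to 0.48, adjusted p = 0.231). Npc2 was called higher without PBS replicate 3 (LFC 0.36, adjusted p = 0.00631), without that library and irisin replicate 1 together (LFC 0.30, adjusted p = 9.63e-05), and with limma-voom with sample quality weights (LFC 0.29, adjusted p = 0.0344). Npc1, its partner in the lysosomal membrane, had an LFC of -0.10 ± 0.13, and the sterol carrier Stard4 one of 0.12 ± 0.13. Soat1, which esterifies cholesterol for storage, was 245, 245 and 249.8 CPM in PBS and 241, 244 and 237 CPM in irisin. Its irisin values all lay below PBS, but the LFC was only -0.03 ± 0.08 (95% interval -0.20 to 0.13, adjusted p = 0.898), the narrowest standard error of the 31 genes.

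Per kilobase of exon, the scale on which genes can be compared, Npc2 led at 251 CPM over the 6 libraries. Hmgcs1 (44.6 CPM per kilobase), Cyp51 (34.5), Sc5d (33.7) and Insig1 (33.1) followed. Abca1 was at 6.67 CPM per kilobase in PBS and 12.2 in irisin, and Abcg1, the lowest of the 31, at 1.63 and 0.521. Exon lengths cover all annotated transcripts of a gene, so genes with long rare transcripts come out too low.

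Genes around the route, in 5 lists of 58 genes (55 tested), were called in 6 cases, 2 higher and 4 lower (10.9% of those tested, beside 7.42% of all genes tested). The oxysterol enzymes held 3 of these calls among 5 tested genes. Ch25h, which makes 25-hydroxycholesterol, an LXR ligand that also restrains SREBP, was 54.1, 64.6 and 49.7 CPM in PBS and 149, 142 and 147 CPM in irisin, a 2.60-fold rise (LFC 1.38 ± 0.11, adjusted p = 3.12e-06). Cyp7b1, which breaks such oxysterols down, was 27.4, 27.3 and 22.5 CPM in PBS and 136, 124 and 121 CPM in irisin, a 4.93-fold rise (LFC 2.30 ± 0.11, adjusted p = 6.64e-08). The maker and the breaker of 25-hydroxycholesterol thus rose in the same libraries. Cyp27a1, which makes 27-hydroxycholesterol, fell from 25.8, 23.6 and 24.3 CPM to 10.1, 15.5 and 16.5 CPM (LFC -0.81 ± 0.18, adjusted p = 0.0144, and 0.0672 without PBS replicate 1).

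**Figure D5:**
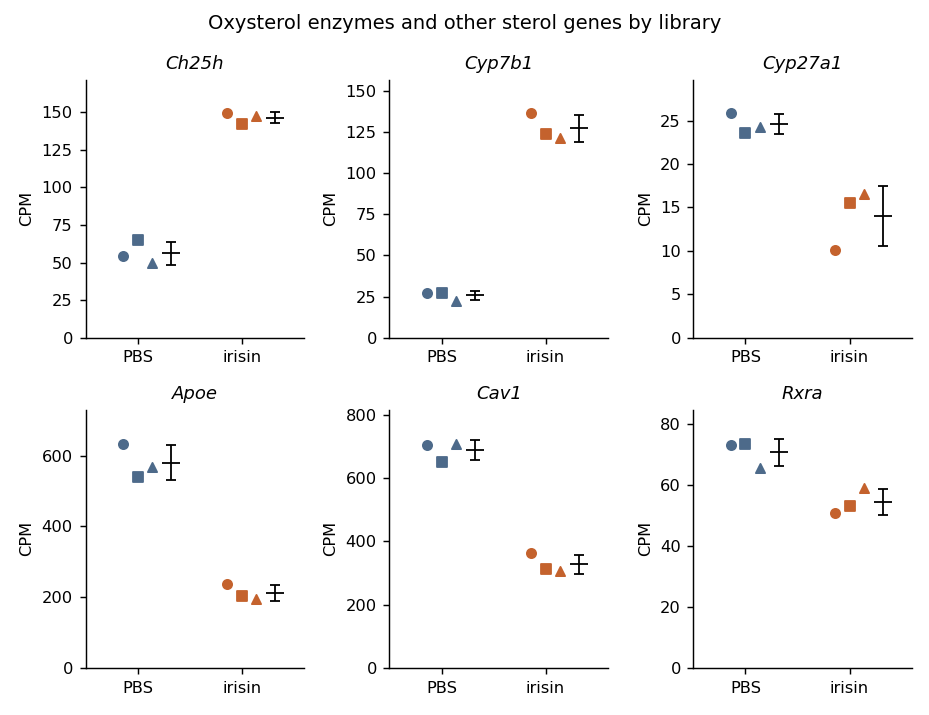
CPM of Ch25h, Cyp7b1, Cyp27a1, Apoe, Cav1 and Rxra in each library (linear axis from 0; circle, square and triangle are replicates 1, 2 and 3), with mean and SD of each group in black. Ch25h and Cyp7b1 are higher in the irisin libraries and the other 4 genes lower, with no overlap.

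Beside Abca1 and Abcg1, the list of LXR partners, efflux and ester genes had 2 of 12 tested genes lower and none higher. Apoe, a lipoprotein component that takes up exported cholesterol, went from 580.5 ± 48.7 to 211 ± 22.6 CPM (SD, n = 3 each; LFC -1.46 ± 0.10, adjusted p = 8.89e-07). Rxra, the DNA-binding partner of the LXRs, passed narrowly (70.9 ± 4.45 to 54.4 ± 4.36 CPM, LFC -0.38 ± 0.11, adjusted p = 0.0486), and the call was lost in 9 of 17 alternatives (adjusted p 0.0513 to 0.188). Soat2, a second esterifying enzyme, named here after its values were seen, was 2.90, 2.06 and 2.21 CPM in PBS and 4.96, 3.29 and 7.07 CPM in irisin. Its groups did not overlap but it did not pass (LFC 1.10 ± 0.34, adjusted p = 0.0786), and it was called higher with no filter on low counts (adjusted p = 0.0499). In the list of lipoprotein uptake and sterol transport, 1 of 15 tested genes was lower and none higher. It was Cav1, a cholesterol-binding coat protein of caveolae (688 ± 32.5 to 327 ± 31.2 CPM, LFC -1.07 ± 0.09, adjusted p = 6.05e-06). Vldlr, a lipoprotein receptor and the next of that list by p, did not pass (LFC 0.31 ± 0.11, adjusted p = 0.115). It was called higher without PBS replicate 3 (adjusted p = 0.0217), without that library and irisin replicate 1 together (adjusted p = 0.00591), and with limma-voom with sample quality weights (adjusted p = 0.0201). Scarb1, of the same list and also named after its values were seen, did not pass (LFC -0.51 ± 0.22, adjusted p = 0.253). Its groups overlapped. It was called lower in 4 of 17 alternatives (adjusted p 4.76e-05 to 0.0449). These were the same 3 as for Vldlr and the one with no filter on low counts. None of the 13 tested genes of the isoprenoid branch was called, the lowest p being those of Fnta (LFC -0.45 ± 0.21, adjusted p = 0.262), a subunit of protein prenyltransferases, and Coq2 (LFC -0.48 ± 0.23, adjusted p = 0.314), an enzyme of coenzyme Q synthesis. Among 10 sterol sensing partners none was called either, with the lowest p in Rnf139 (LFC -0.25 ± 0.13, adjusted p = 0.374) and the SREBP-cleaving protease Mbtps1 (LFC 0.15 ± 0.10, adjusted p = 0.476).

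Positions are those of GENCODE M21 on GRCm38 (mm10), and all 31 genes are annotated as protein-coding. Abca1 lies on chromosome 4 from 53030787 to 53159895, Abcg1 on chromosome 17 from 31057675 to 31117988 and Hsd17b7 on chromosome 1 from 169949535 to 169969241. These 3 genes share no exon base with another gene. Opposite-strand exons of other genes overlap 7 of the 31 (Hmgcs1, Idi1, Fdft1, Lss, Cyp51, Scap and Npc1), and exons on the same strand overlap 3 (Fdps, Tm7sf2 and Nr1h3). Of the called genes around the route, Ch25h has opposite-strand exons of other genes over 159 of its 1387 exon bases. The labels do not say whether counting used strand, so the values of all these genes are uncertain to that extent. Reads shared with near-identical copies elsewhere in the genome were not examined. Counts were summed over a gene, so exons and untranslated regions were not told apart.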

How the data were processed

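Polyadenylated RNA of 6 libraries (3 PBS, 3 irisin) was sequenced. The submitters' processing notes list STAR 2.7.3a, featureCounts and mm10. The table deposited by the authors holds raw whole-number counts for each gene. Its annotation release, strand setting and read filters were not given in the sources used here. Columns were matched to samples by library name. With edgeR 4.0.16 (R 4.3.3), the filterByExpr function (count minimum 10) left 12296 of 31436 genes that had any count, TMM factors were computed, and groups were compared by the robust quasi-likelihood test with no covariate. P-values were adjusted by Benjamini-Hochberg over all genes tested, with 0.05 as threshold. CPM were computed from the deposited counts over each library's sum of tested genes times its TMM factor. Standard errors were the absolute LFC over the root of F, and 95% intervals used the test's degrees of freedom. The steps were tested on counts simulated from each gene's mean and spread. That simulation held no library that stood apart from its group, so it does not cover such differences. DESeq2 1.42.0 and limma 3.58.1 (voom with sample quality weights, not run without them) were alternatives. The members, lists and alternatives were chosen with earlier results of these data known. All members are named, and of each other list the genes called and the 2 of lowest p. Soat2 and Scarb1 were added after their values were seen. Some genes of the pathway are not reported here. List counts are descriptions, with no test of a list.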

Additional observations from a re-analysis of the deposited data

How the results depend on the processing

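Of the 31 genes, 28 kept their call or lack of one in all 17 alternatives (16 for Idi1, which a count minimum of 50 removed), and the exceptions were Hsd17b7 (lost in 2), Npc2 (gained in 3) and Cyp51 (gained in 1). No called direction was turned. Cholesterol genes called higher numbered 2 instead of 1 with limma-voom with sample quality weights and without the pair PBS replicate 3 and irisin replicate 1, and 1 to 2 with single libraries left out. Those called lower numbered 1 to 2 with single libraries left out and 3 with both left out. Calls in the related lists numbered 12 instead of 6 with both left out, and 4 to 8 with single libraries left out. Over all genes, 589 to 1290 were called with single libraries left out (336 to 705 higher, 238 to 585 lower), and 1680 with both left out (892 higher, 788 lower). Genes called lower numbered 602 with total counts and 623 with limma-voom and those weights, instead of 396. The median LFC of the 31 genes ran from -0.17 with total counts to -0.04 without PBS replicate 3, while that scaling put the median of all genes at -0.09. With the replicate number as a block, 691 genes passed and the same 3 cholesterol genes were called. Deviations from the group means correlated at -0.24, 0.16 and -0.18 between same-numbered libraries. The highest correlation was that of PBS replicate 3 with irisin replicate 1, at 0.36. Deviations from a mean of 3 libraries depend on each other, so these values cannot decide whether the numbers pair the libraries. Depth limits Abcg1 (14 to 82 counts) and Idi1 most. The cause of these shifts was not tested.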
